A study of Caenorhabditis elegans with 4 samples.

Results

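The peaks on the X chromosome are the sites of highest signal on X in a chromatin immunoprecipitation (ChIP-seq) of CEY-2, in which DNA recovered with the protein was sequenced and piled-up fragments were called as peaks. They were selected on the authors' signal value: the pooled ce11 list of 25484 peaks was ranked by it, the top 3000 were taken, and those on X were kept. This left 521 X peaks, against 2454 peaks on the 5 autosomes, with the remaining 25 on the mitochondrial genome. Overlapping intervals merged into 502 X regions and 2368 autosomal regions. The lowest X peaks kept ranked 2993 and 2994 with a signal of 19.25 each, and the first X peaks left out ranked 3012 and 3013 with 19.21 each.

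The worms were L4 larval hermaphrodites of strain OP358, genotype unc-119(tm4063) III; wgIs358, in which an integrated transgene makes CEY-2 with a GFP-FLAG tag at its C terminus, and whole animals were used with an antibody against GFP. All libraries shared this 1 genotype and stage. There were 3 biological replicates from 4 libraries, replicate 2 having 2 technical libraries merged by the authors. No read counts were given, so depth is unknown, and replicates 1 and 2 have 30000 peaks listed each, replicate 3 having 21628.

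CEY-2 belongs to the Y-box proteins, which carry a cold shock domain and are known above all as RNA-binding proteins of the germ line. Hermaphrodites carry a pair of X chromosomes and males a single one. In hermaphrodite somatic cells the dosage compensation complex, a relative of condensin, binds both X chromosomes and lowers their transcription. It is loaded at recruitment sites on X, many of which hold copies of the MEX motif, and the word GCGCAGGG is the core of that motif.

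Of the 8 short words searched, the MEX core had the largest ratio between its share of X summits and its share of autosomal summits. It lay within 100 bp of 13 of 521 X summits (2.5%, exact 95% interval 1.33 to 4.23%) and of 4 of 2454 autosomal summits (0.163%, 0.0444 to 0.417%). The core itself is rare on both: in consecutive windows of the same length it occurred in 0.0851% of those on X and in 0.0553% of those on the autosomes. The 13 X peaks held 16 copies of the core, printed here because they carry this difference. Each line gives a nearby or surrounding gene, not always the nearest, the position in build ce11 with its strand, and the bases read on that strand, with the core in capitals and 20 bases on either side from the reference genome.
F20B6.9, chrX:4209246-4209293 (-): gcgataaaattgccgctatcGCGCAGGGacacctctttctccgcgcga
gtr-1, first copy, chrX:806654-806701 (+): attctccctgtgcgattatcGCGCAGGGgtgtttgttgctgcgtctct
gtr-1, second copy, chrX:806730-806777 (+): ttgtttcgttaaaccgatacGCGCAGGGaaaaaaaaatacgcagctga
pks-1, chrX:5429570-5429617 (+): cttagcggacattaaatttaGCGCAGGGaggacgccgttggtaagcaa
W02H3.3, chrX:11094206-11094253 (-): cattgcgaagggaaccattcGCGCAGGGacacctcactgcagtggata
Y41G9A.17, chrX:2997103-2997150 (-): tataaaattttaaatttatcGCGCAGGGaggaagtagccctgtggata
T24D8.6, chrX:2364879-2364926 (-): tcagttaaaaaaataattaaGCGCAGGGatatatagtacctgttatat
mom-1, first copy, chrX:6296528-6296575 (+): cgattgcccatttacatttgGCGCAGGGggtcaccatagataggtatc
mom-1, second copy, chrX:6296556-6296603 (+): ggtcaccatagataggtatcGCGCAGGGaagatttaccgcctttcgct
F22H10.2, chrX:16682152-16682199 (-): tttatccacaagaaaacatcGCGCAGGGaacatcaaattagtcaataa
nspc-17, chrX:14525880-14525927 (-): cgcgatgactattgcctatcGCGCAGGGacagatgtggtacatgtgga
C18A11.13, first copy, chrX:8036381-8036428 (-): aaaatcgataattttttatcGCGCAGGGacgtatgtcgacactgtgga
C18A11.13, second copy, chrX:8036415-8036462 (+): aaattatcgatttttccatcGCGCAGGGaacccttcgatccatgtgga
gcc-1, chrX:3159706-3159753 (-): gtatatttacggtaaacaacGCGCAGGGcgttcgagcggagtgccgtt
Y41G9A.17, lower peak, chrX:2997278-2997325 (-): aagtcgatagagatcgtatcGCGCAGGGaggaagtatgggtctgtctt
egl-17, chrX:489988-490035 (+): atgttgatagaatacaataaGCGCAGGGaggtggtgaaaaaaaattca

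All 16 copies lay within 100 bp of a summit by definition. The flanking bases were alike as well. The base just before the core was C in 12 of the 16 copies and the one before that T in 12, and the base just after it was A in 13. Among the 65 copies on X away from these summits, C came just before in 21, T in the next place in 26, and A just after in 21. Copies with TC before and A after numbered 13 on X, of which 9 had a summit (69.2%, exact 95% interval 38.6 to 90.9%), and 2 on the autosomes, of which 0 had one (exact upper limit 84.2%). These flanks were picked after the copies had been seen, so the count is a description.

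Counted from the genome side, 16 of 81 copies of the core on X had a summit of the pooled top 3000 within 100 bp (19.8%, exact 95% interval 11.7 to 30.1%). On the autosomes 4 of 233 copies had one (1.72%, 0.47 to 4.34%). The bases within 100 bp of such a summit made up 0.591% of X and 0.598% of the autosomes, so summits covered similar shares of both. X carried 4.57 copies per Mb and the autosomes 2.82.

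The same was seen in each replicate's own top 3000. In replicate 1 the core was at 1.38% of X summits against 0.0406% of autosomal summits. In replicate 2 it was at 2.76% of X summits against 0.0405% of autosomal summits, and in replicate 3 at 2.02% of X summits against 0.121% of autosomal summits. The X share was the higher in all 3, by 1.98 percentage points on average (SD 0.693, n = 3). An exact two-sided sign-flip permutation test over the 3 differences gave p = 0.25, the smallest p that 3 replicates allow, and no comparison made this way can reach 0.05. Replicates may share their preparation beyond what the labels say, and the pooled list is made from their reads.

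The peaks with the core were high ones. Their median signal was 47.6, against 25 for the other X peaks, and 9 of the 13 were among the 100 highest X peaks. Peaks were selected on this same signal, so the height contrast is a description and was not tested. Of the 13, 9 passed the authors' irreproducible discovery rate (IDR) threshold, a measure of how ranks recur between replicates, and 91 of all 521 X peaks did. Those 91 were the highest X peaks, the lowest signal on the IDR list being 35.9. The IDR count thus repeats the count by height and is no separate evidence. A summit lay within 200 bp in all 3 replicate lists for 10 of the 13 (76.9%). The share was 55.3% over all X peaks and 92% over the 100 highest, where 9 of the 13 lie. The signals of the 13 ran from 19.4 to 67.4.

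The highest of them was the 7th highest X peak, with its summit at 4209297, intergenic and 1812 bp upstream of F20B6.9, and it ranked 116, 180 and 487 in replicates 1, 2 and 3. The peak at 806702, 3924 bp downstream of the start of gtr-1 and past that gene's end, held 2 copies and ranked 241, 50 and 7377. A peak in a coding exon of pks-1, which encodes a polyketide synthase, ranked 342, 492 and 2021. The first 2 replicates thus placed these 3 peaks high, while replicate 3 gave the gtr-1 peak a low rank.

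Peaks with 2 copies also lay in an intron of mom-1, the worm porcupine of Wnt secretion, and 291 bp upstream of the noncoding RNA gene C18A11.13. The C18A11.13 summit, at 8036383, was at -4930 bp from the start of xol-1, the switch gene that sets the male fate, and had no summit within 200 bp in replicate 1. An intron of Y41G9A.17 held a pair of peaks, with signals of 48.9 and 20.3, each with 1 copy. Both matched the same replicate 1 summit (rank 1576). Their best matches differed in replicate 2 (ranks 381 and 1934) and in replicate 3 (ranks 50 and 2514). Whether the pair forms 1 site was not tested. The core was at a promoter of a protein-coding gene in 1 of the 13 peaks, that of the golgin-type coiled-coil gene gcc-1, whose summit lay at -121 bp from the gene start (negative distances are upstream). The gcc-1 peak was a low one, with a signal of 20.5. It ranked 23707 and 5486 in replicates 1 and 2 and had no summit within 200 bp in replicate 3.

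Of the 13 peaks, 8 lay in the left part of X when it is cut into 3 equal parts by length, 3 in the middle part and 2 in the right part. Over all X summits the left, middle and right parts held 24.6%, 38% and 37.4%, and the difference was not tested. The GA repeat was near 2 of the 13 (15.4%) and the E-box near 0, against 25.3% and 13.2% of all X summits. Counts from 13 peaks are too few to set these word shares apart. The 4 autosomal peaks with the core were in an intron near col-94 (signal 61.6), in the 5' UTR of sma-2 (39.7), in a promoter near cox-6A (22.2) and in intergenic sequence near tep-1 (21.8).

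**Figure D1:**
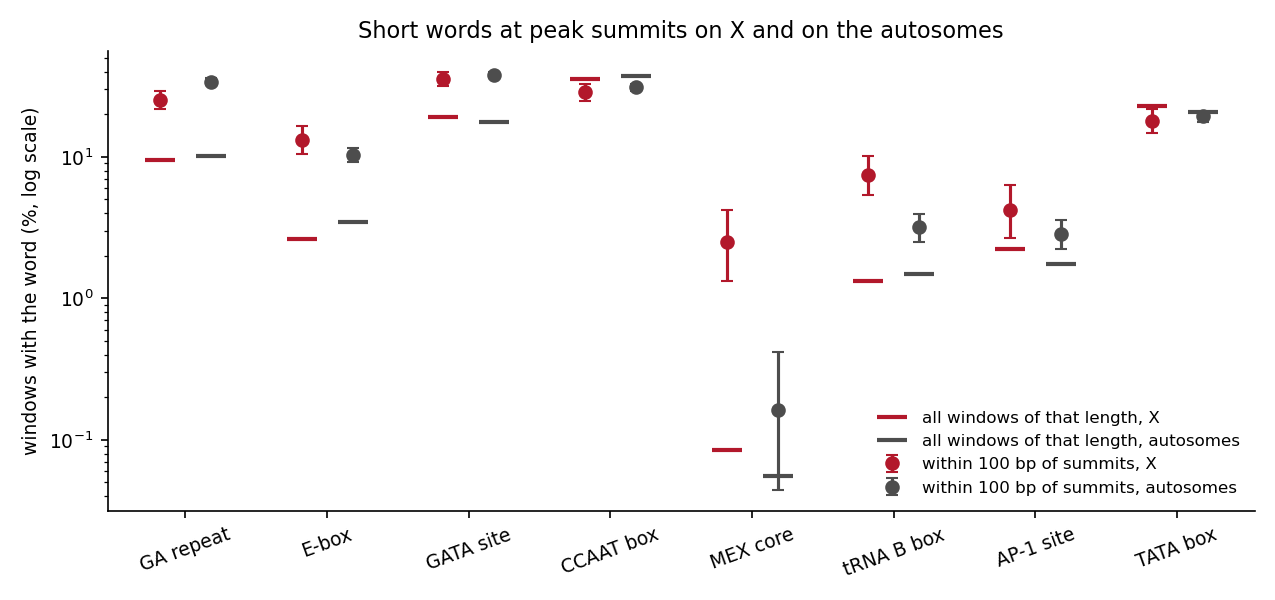
Share of windows reaching 100 bp to either side that hold each short word, on a log scale, at X summits (red, left of each pair) and autosomal summits (grey), with exact 95% intervals; the short bars give the share over all consecutive windows of that length on the chromosomes. The MEX core is at 2.5% of X summits and 0.163% of autosomal summits, while the GA repeat is at 25.3% and 34%.

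The other words searched on both strands differed less. They were GAGAGA (a GA repeat), CACGTG (the E-box bound by basic helix-loop-helix factors), TGATAA (bound by GATA factors), ATTGG (the inverted CCAAT or Y-box), GGTTCGA (in the internal B box of tRNA genes), TGACTCA (AP-1) and TATAAA (the TATA box). None of the 8 words was found at 94 X summits (18%) and 402 autosomal summits (16.4%). A word near a summit is a match of letters and does not show that a factor bound there.

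The GA repeat was at fewer X summits than autosomal ones. It lay within 100 bp of 132 X summits (25.3%, exact 95% interval 21.6 to 29.3%) and of 835 autosomal summits (34%, 32.1 to 35.9%), and the 5 autosomes ranged from 28.7 to 41.6%. In the genome at large the word was about as common on both, in 9.5% of windows on X and 10.1% of those on the autosomes. In replicates 1, 2 and 3 it was at 19.5%, 27.4% and 19.8% of X summits, against 22.2%, 34.5% and 23.5% of autosomal summits. X was lower in each, and the exact sign-flip permutation p was 0.25.

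Within X the word was unevenly spread. It was at 29.7% of the 323 summits in the outer parts of X, left and right, and at 18.2% of the 198 in the middle part. On the autosomes the shares were 37.2% and 30.9%. By class, X had the word at 35.5% of promoter summits of coding genes and 21.4% of intron summits, against 31.6% and 34.4% on the autosomes. Among the 100 highest X peaks 33% had it, and among the lowest 121, 19.8%. These splits within X were not tested.

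The E-box was at 13.2% of X summits and 10.4% of autosomal summits, with shares over all windows of 2.64% on X and 3.48% on the autosomes. The replicates did not share a direction: replicate 2 had 11.8% on X and 9.93% on the autosomes, while replicates 1 and 3 both had 7.68% on X, against 7.91% and 8.06% on the autosomes (exact sign-flip permutation p = 1). The GATA word was at 35.5% of X summits and 38% of autosomal summits, the mean difference over replicates being -1.78 percentage points (p = 0.5 in the same permutation test). The Y-box word, which the family is named for, was at 28.8% of X summits and 31% of autosomal summits. Both were below the 35.3% of X windows and 37% of autosomal windows that hold it.

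Some of the highest X peaks are printed next because their values recur below. Each line gives the reference genome from 100 bp before to 100 bp after a summit, on the plus strand, with any of the 8 words in capitals on either strand.
mdl-1 peak, chrX:6743946-6744146: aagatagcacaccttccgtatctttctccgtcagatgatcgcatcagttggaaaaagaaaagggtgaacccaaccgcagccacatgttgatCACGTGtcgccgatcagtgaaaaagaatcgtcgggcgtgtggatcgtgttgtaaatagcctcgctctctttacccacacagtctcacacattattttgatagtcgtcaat
sdz-19 peak, chrX:12500976-12501176: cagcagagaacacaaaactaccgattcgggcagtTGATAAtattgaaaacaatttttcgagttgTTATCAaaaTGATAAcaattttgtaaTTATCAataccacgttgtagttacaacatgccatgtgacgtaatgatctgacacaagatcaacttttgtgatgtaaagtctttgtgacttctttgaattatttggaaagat
puf-9 peak, chrX:5841152-5841352: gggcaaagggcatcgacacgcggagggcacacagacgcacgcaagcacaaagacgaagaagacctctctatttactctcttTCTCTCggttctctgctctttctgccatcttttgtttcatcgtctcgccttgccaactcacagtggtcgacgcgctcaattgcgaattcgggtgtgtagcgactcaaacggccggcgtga
tatn-1 peak, chrX:14790423-14790623: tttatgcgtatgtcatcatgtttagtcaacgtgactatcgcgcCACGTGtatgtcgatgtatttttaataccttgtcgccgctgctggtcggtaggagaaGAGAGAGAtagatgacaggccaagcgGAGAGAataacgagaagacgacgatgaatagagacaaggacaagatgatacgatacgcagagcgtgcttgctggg

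The highest X peak, with a signal of 95.1, lay just beyond the 3' end of mdl-1 (WBGene00003163, X: 6742351 to 6743899), and 226 bp upstream of the noncoding RNA gene R03E9.7. mdl-1 encodes a Mad-like basic helix-loop-helix leucine zipper protein, of a family that binds E-boxes, and an E-box lies in the printed window. The peak ranked 43, 44 and 63 in replicates 1, 2 and 3. The highest autosomal peak had a signal of 163, and X's highest ranked 37 in the whole pooled list. That ranking counts mitochondrial peaks, 475 of its top 500 being nuclear.

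The X peak next in height (82.3) was intergenic, 2262 bp downstream of the start of sdz-19 and past that gene's end, and ranked 70, 122 and 21 in replicates 1, 2 and 3. Its window holds 4 GATA words. The fourth (79.6) lay 340 bp upstream of puf-9, a Pumilio-family RNA-binding protein gene, and ranked 170, 35 and 580. The 10th highest (64.8) lay 485 bp upstream of tatn-1, a tyrosine aminotransferase gene, with a GA repeat and an E-box, and ranked 849, 80 and 67. All 3 replicates thus placed these peaks within their top 1000.

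Several more of the 25 highest X peaks lay in or at named coding genes. An intron of nhr-27, a nuclear receptor gene, held a peak of 53.7, and an intron of sma-9, a Schnurri-like zinc finger gene of the body-size TGF-beta pathway, one of 52.4. An intron of mob-2, related to Mob kinase activators, held one of 52.2, and the promoter of T24D3.2 one of 58.2. The 9th highest peak (65) sat on a tRNA gene, WBGene00014540, 27 bp from its start. Of these 25 summits, 8 were intergenic.

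Heights on X were otherwise close to those on the autosomes. The median signal was 25.2 on X and 25.5 on the autosomes, and the 90th percentile 42.4 and 44.7. In each replicate's own top 3000 the medians were 12.2 on X and 12.2 on the autosomes for replicate 1, 13 and 13.1 for replicate 2, and 7.07 and 7.09 for replicate 3. X made up 15.8% of the nuclear peaks ranked in the top 500 and 18.6% of those ranked 2501 to 3000, with exact 95% intervals of 12.6 to 19.4% and 15.3 to 22.3% that overlap.

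X had as many peaks per base as the autosomes and more per coding gene. It held 29.4 peaks per Mb, against 29.7 on the autosomes, which ranged from 25.9 to 35.5. It held 191 peaks per 1000 protein-coding genes, the most of the 6 chromosomes, against 142 on the autosomes, where III came next with 186. X has 154 coding genes per Mb and the autosomes 209. In replicates 1, 2 and 3 there were 28.7, 28.7 and 27.9 peaks per Mb on X, against 29.9, 29.9 and 30.1 on the autosomes, and the exact sign-flip permutation p was 0.25.

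Autosomes of C. elegans have gene-rich, actively transcribed centres and repeat-rich arms, a division that is weaker on X. X peaks were spread more evenly along their chromosome. With each chromosome cut into 3 equal parts by length, the 2 outer parts of X held 323 of 521 summits (62%, exact 95% interval 57.7 to 66.2%), and those of the autosomes 1209 of 2454 (49.3%, 47.3 to 51.3%). The 5 autosomes ranged from 43.5 to 54.7%, so that each lay below X. Starts of coding genes lay in the outer parts in 64.3% of cases on X and 61.9% on the autosomes.

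The difference was present in each replicate. The outer parts held 63%, 62.8% and 61.2% of X summits in replicates 1, 2 and 3, against 47.9%, 51.6% and 52.5% of autosomal summits. The ranges did not overlap, and the differences were 15.1, 11.2 and 8.71 percentage points (exact sign-flip permutation p = 0.25).

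**Figure D2:**
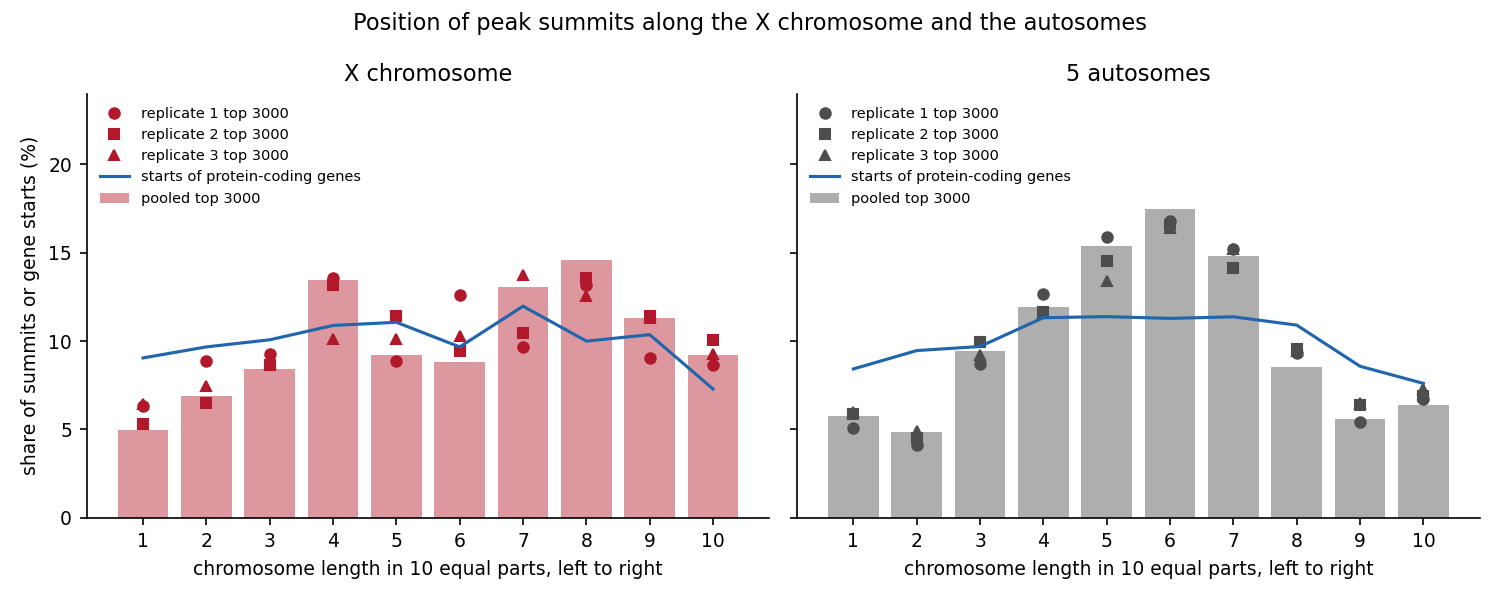
Share of summits (bars, pooled top 3000; points, each replicate's own top 3000) and of protein-coding gene starts (line) in each of 10 equal parts of chromosome length, for X (left) and the 5 autosomes together (right). Autosomal summits reach 17.4% in the part just right of the middle, where X has 8.83%; X summits are fewest in the leftmost, at 4.99%.

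The even spread hid a left-right difference on X. The left part held 128 X summits (24.6%, exact 95% interval 20.9 to 28.5%), the middle 198 (38%) and the right 195 (37.4%). Coding gene starts lay in the left part in 31.9% of cases. In replicates 1, 2 and 3 the left part held 29.1%, 25.2% and 25.3% of X summits, the lowest of the 3 parts in each. By bins of 1 Mb the count ran from 10 peaks in the first Mb to 45 between 6 and 7 Mb, and over 17 bins Spearman's rho with the number of coding genes was 0.547, given as a description since bins share the same libraries.

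By annotation, X summits were less often at promoters of protein-coding genes, taken as the 500 bp upstream of a start. These held 107 X summits (20.5%, exact 95% interval 17.2 to 24.3%) and 686 autosomal summits (28%, 26.2 to 29.8%), with each autosome between 24.7 and 34.6%. Such promoters make up 7.51% of X and 9.82% of autosomal bases, and the ratio of summit share to base share was 2.73 on X and 2.85 on the autosomes. Over the replicates' own lists the difference was -5.89 ± 2.71 percentage points (SD, n = 3, exact sign-flip permutation p = 0.25). The median distance from a summit to the nearest coding start was 1561 bp on X and 1070 bp on the autosomes.

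With the starts of noncoding genes counted too, the promoter share was 38% on X and 35.4% on the autosomes. Promoters of noncoding genes alone held 91 X summits (17.5%) and 182 autosomal ones (7.42%). X carries more annotated noncoding RNA genes, 142 per Mb against 63.5 on the autosomes. The nearest start of any gene was that of a noncoding RNA for 33% of X summits and 19.8% of autosomal summits. With all starts counted, replicates 1, 2 and 3 had 25.6%, 36.4% and 29.5% of X summits at promoters, against 27.1%, 32.4% and 29.3% of autosomal summits (exact sign-flip permutation p = 0.75), and the list past the IDR threshold had 31.9% on X and 34.3% on the autosomes. The direction thus differed between sets of starts, between replicates and between lists.

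**Figure D3:**
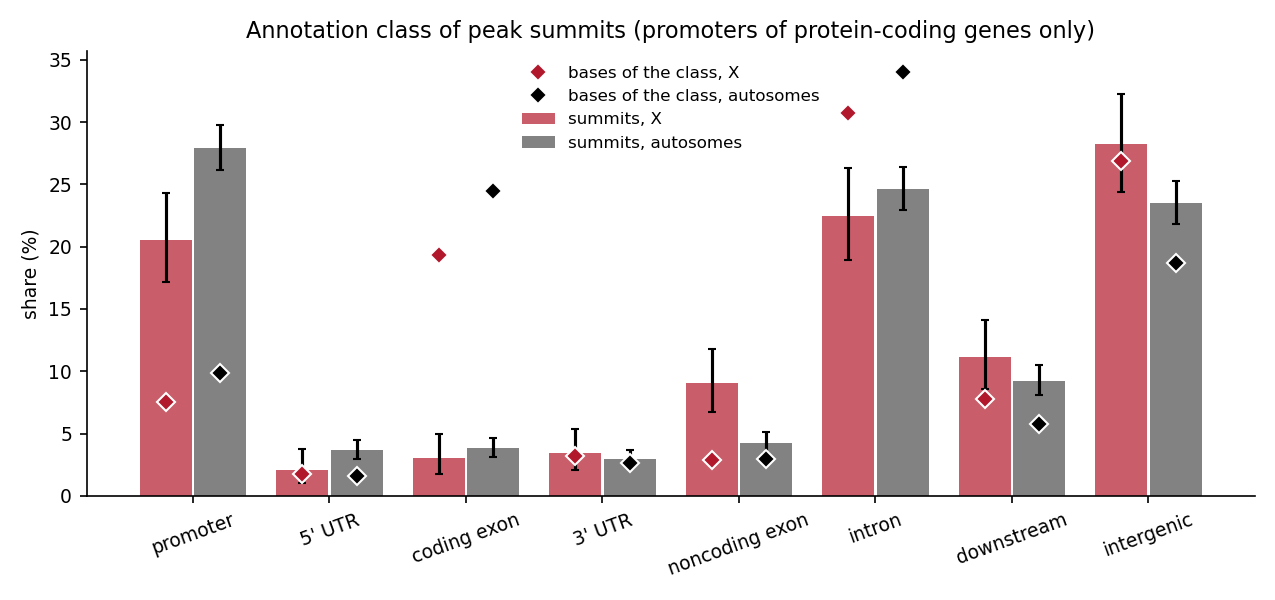
Share of X summits (red, left of each pair) and autosomal summits (grey) in each annotation class, with exact 95% intervals; diamonds give the share of bases in the class. Promoters of coding genes hold 20.5% of X summits and 28% of autosomal summits, and coding exons hold few of either.

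In the same annotation with all starts, coding exons held 12 X summits (2.3% against 18.6% of X bases) and introns 94 (18% against 28.6%). Intergenic sequence held 128 X summits (24.6% against 25% of X bases), where the autosomes had 21.8% of summits in 17.5% of bases. Exons of noncoding genes held 5.57% of X summits and 3.18% of autosomal summits, the replicate mean difference being 1.78 ± 2.78 percentage points (exact sign-flip permutation p = 0.5). The highest X peaks in the smaller classes were those of the pks-1 exon (51.8), a 3' UTR of lgl-1 (41.8) and a 5' UTR of fkh-9 (38.4), a forkhead factor gene.

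X is known for its many tRNA genes, and these were a frequent place for its peaks. It has 276 of them, 15.6 per Mb, against 336 on the autosomes, 4.07 per Mb. A tRNA start was the nearest gene start for 48 X summits (9.21%) and 50 autosomal summits (2.04%). Per gene, 77 of 276 X tRNA genes had a summit within 500 bp of their start (27.9%, exact 95% interval 22.7 to 33.6%), at 58 peaks, against 71 of 336 on the autosomes (21.1%, 16.9 to 25.9%). Beside these, 6.37% of all genes on X had such a summit and 5.92% of all autosomal genes, piRNA genes left out.

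The replicates differed in this. Of X tRNA genes 10.1%, 20.7% and 35.5% had a top 3000 summit in replicates 1, 2 and 3, against 8.93%, 18.5% and 17.9% of autosomal tRNA genes. The difference between X and autosomes was thus small in replicates 1 and 2 and large in replicate 3. The B box word, counted per summit and not per gene, was at 3.74%, 5.51% and 9.9% of X summits in replicates 1, 2 and 3. It was at 1.83%, 2.88% and 2.62% of autosomal summits, lower than X in each replicate. In the pooled list it was at 39 X summits (7.49%) and 78 autosomal ones (3.18%). After WBGene00014540, the highest peak at an X tRNA gene was at WBGene00009936 (48.2). tRNA genes near each other can share a peak, and near-identical copies make the placing of reads uncertain.

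Protein-coding genes of X had a summit within 500 bp of their start in 131 of 2731 cases (4.8%), against 960 of 17242 on the autosomes (5.57%). Gene families gave counts of at most 2 on X, too few to set them apart from these shares. Of 23 nuclear hormone receptor genes, whose products are ligand-regulated transcription factors, 2 had a peak: nhr-35, at -244 bp with a signal of 40.2, and nhr-32, at -309 bp with 21.6. On the autosomes 19 of 246 did. Of 27 collagen genes of the cuticle 2 did, col-184 (34) and col-19 (25.5), and 20 of 129 on the autosomes.

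No X member had a peak among 20 ceh and lim homeobox genes, 13 flp and 19 nlp neuropeptide genes, 6 acr acetylcholine receptor subunits, 10 twk potassium channels, 5 vit vitellogenins and 2 ribosomal protein genes. On the autosomes the counts were 1 of 48, 0 of 18, 4 of 52, 0 of 15, 2 of 34, 0 of 1 and 20 of 76 in the same order. Each of these lists is too short for 0 to be told apart from a share of 4.8%.

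Small RNA genes are read against the share over all genes, 6.37% on X and 5.92% on the autosomes. Among them, 2 of 74 X microRNA genes had a peak, cel-mir-54 (39.8) and cel-mir-239b (23.9), against 22 of 187 on the autosomes. Of 33 X snoRNA genes, whose products guide RNA modification, 1 had a peak, C34E11.20 (23.3), against 61 of 313 on the autosomes. Of 3 snRNA genes on X 1 did, M163.13 (32.6), against 12 of 126 on the autosomes. X genes that count the X dose or start dosage compensation gave 1 of 6: sdc-2, which directs the dosage compensation complex to X, had a summit at -382 bp with a signal of 26.3. That peak had ranks of 3925 and 470 in replicates 2 and 3 and no summit within 200 bp in replicate 1. The other members, xol-1, sdc-1, sex-1, fox-1 and ceh-39, had none. Over all protein-coding genes of X the share was 4.8% (131 of 2731), and 6 genes are too few to tell 1 apart from it.

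X peaks gathered into runs a little less than autosomal ones did. Of the 502 X regions 231 had another within 5 kb (46%), against 1206 of 2368 autosomal regions (50.9%), with the autosomes between 48.3 and 53.4%. In replicates 1, 2 and 3 the difference was -4.68, -10.6 and -7.03 percentage points (exact sign-flip permutation p = 0.25). Runs of at least 3 regions, each within 5 kb of the next, numbered 32 on X and 189 on the autosomes.

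The longest run on X had 10 regions, as many as the longest on any autosome, in 14165 bp from 6736314 to 6750478 around mdl-1. Its signals were 52.8, 81.1, 30.1, 29.4, 28.1, 95.1, 28.3, 23.1, 58.4 and 37.7 from left to right. The summit nearest the mdl-1 start, at -37 bp, was one of the lower ones (28.1). The highest stood 1695 bp downstream of that start, past the end of the gene, and the next highest at -4603 bp. The 2 rightmost, at 7102 and 7933 bp, lay in an intron of abts-4, an anion transporter gene on the other strand. In all 3 replicate lists 9 of the 10 had a summit within 200 bp.

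**Figure D4:**
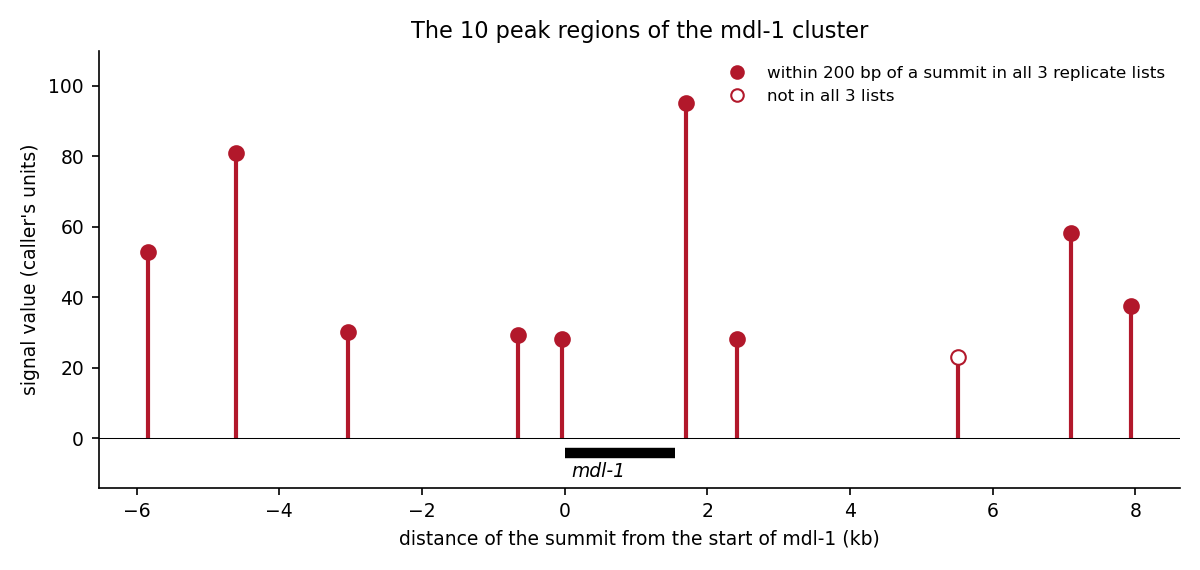
Signal value of the 10 peak regions around mdl-1 against the distance of their summits from its start, in kb; filled points have a summit within 200 bp in all 3 replicate lists. The highest (95.1) stands past the end of the gene and the one nearest the start reaches 28.1.

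The run next in size had 7 regions in 10431 bp around mxl-3, which encodes a Max-like basic helix-loop-helix leucine zipper protein. Its highest peak (50.8) lay 2163 bp downstream of the mxl-3 start, past the gene, and ranked 110, 292 and 253 in replicates 1, 2 and 3. The summit at -139 bp of mxl-3 reached 22.1, so here too the promoter peak was lower than one beyond the gene. All 3 replicate lists held 5 of the 7. The run of 6 regions had signals from 20.1 to 37.5 and lay within or at the edge of ZK470.2, with 5 summits in its introns. Their nearest gene start was that of the short gene ZK470.4, for 4 of them between -2412 and -6604 bp. The last summit, in a 3' UTR, was nearest the start of nck-1, an SH2-SH3 adaptor gene, 5628 bp away.

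Smaller runs, picked here after their values were seen, lay at fkh-9 and ttr-48 (5 regions), sma-9, yap-1, lin-14 and sir-2.2 (4 each), and elt-2, utx-1 and kin-20 (3 each). Regions with a summit within 200 bp in all 3 replicate lists numbered 3, 3, 4, 1, 1, 2, 1 and 2 for these runs in the same order. lin-14 is a heterochronic timing gene, yap-1 encodes the Hippo pathway coactivator, elt-2 the GATA factor of the intestine and utx-1 a histone demethylase. At sma-9 the signals ran from 25.9 to 52.4 and at lin-14 from 20.9 to 34.9.

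X peaks recurred in the replicates about as often as autosomal ones. A summit within 200 bp was found for 82.7%, 93.3% and 72.9% of X peaks in the full lists of replicates 1, 2 and 3, against 85.1%, 92.2% and 73.4% of autosomal peaks. In all 3 lists it was found for 288 X peaks (55.3%, exact 95% interval 50.9 to 59.6%) and 56.5% of autosomal peaks. The full lists are long: bases within 200 bp of their summits made up 12.1%, 10.8% and 8.47% of X. On the autosomes they made up 11.2%, 11.5% and 8.29%. Since the pooled list is built from the same reads, this is a description of the lists and no independent check.

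Within the replicates' own top 3000 fewer matched: 44.3%, 61% and 40.7% of X peaks, against 46.9%, 62% and 43% of autosomal peaks. In all 3 it was 74 X peaks (14.2%) and 390 autosomal peaks (15.9%), and in none 54 X peaks (10.4%) and 278 autosomal ones (11.3%). Taken from each replicate's top 3000 and sought in the full lists of the other replicates, the X share was 29.3%, 35.4% and 33.9% for replicates 1, 2 and 3, against 32.3%, 38.1% and 36.5% for the autosomes. X was lower in each by 2.52 to 2.93 percentage points (exact sign-flip permutation p = 0.25).

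**Figure D5:**
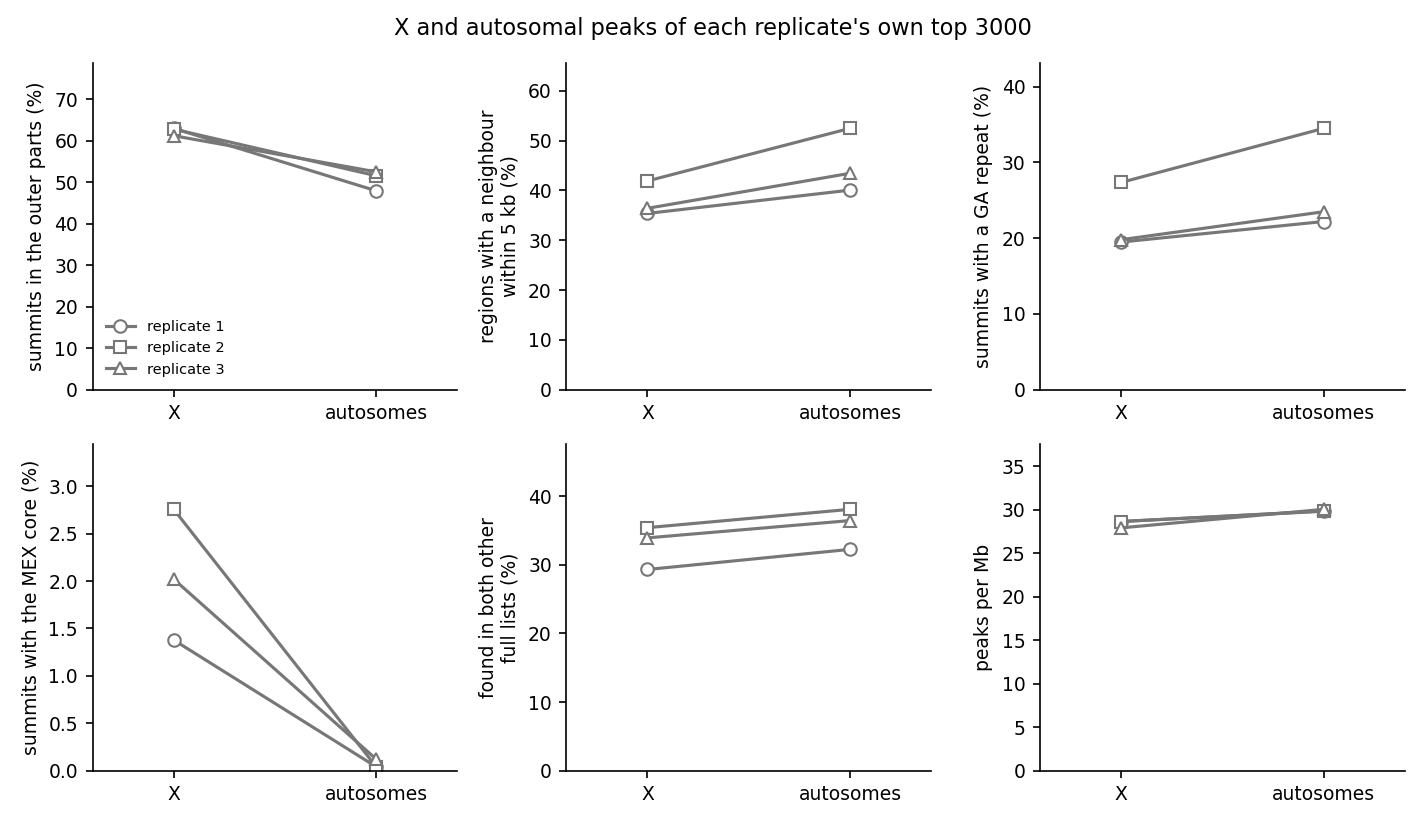
X value (left) and autosomal value (right) in each of the 3 replicates' own top 3000, joined by a line, for 6 measures. In every replicate X is higher in the share in the outer parts and the MEX core and lower in neighbours within 5 kb, the GA repeat, recurrence in the other replicates' full lists and density.

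Higher X peaks recurred more often. Height here is the pooled signal, built from the same reads as the replicate lists, so this is a description and no independent check. Of the 100 highest X peaks 92% had a summit in all 3 full lists, of the next bands of 100 it was 65%, 50% and 47%, and of the 121 lowest 28.1%. For the top 3000 of all 3 replicates the shares were 56%, 15%, 1%, 1% and 0.826%. An X peak among the top 300 of every replicate was found 10 times (1.92%), and an autosomal one 57 times (2.32%). Among the 10 were the mdl-1, sdz-19 and mxl-3 peaks above, the 81.1 peak left of mdl-1 and the 58.4 peak in abts-4, and none of the 13 peaks with the MEX core. Peaks at F19H6.5, T14G8.5 (at -4929 bp from the start of bcat-1), an intron of scd-1 and ZK899.10 were also among them.

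The base composition at X summits was slightly above that of autosomal summits. Mean GC content from 100 bp before to 100 bp after the summit was 38.7% on X (SD over peaks 6.68) and 38.1% on the autosomes (SD 6.44), in chromosomes of 35.2% and 35.5%. The excess over the chromosome was 3.44 points on X and 2.57 on the autosomes. In replicates 1, 2 and 3 the X excess was larger by 0.04, 1.02 and 1.44 points (exact sign-flip permutation p = 0.25), and in replicate 1 it was near 0 on both.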

How the data were processed

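ChIP-seq peak lists of 3 biological replicates were used, as 10 lists shared evenly between builds ce10 and ce11. Per the deposited description files, the authors called peaks against a control, which was not used here. The names of caller and aligner were not given in the sources used here. The signal value of each peak is the authors' own, deposited in column 7, and was used to rank and describe peaks within 1 list. The deposited summit offset gave the summit. The lists hold no read counts, so intervals (exact Clopper-Pearson, 95%) cover counting error only and peaks are not replicates.

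Genes and bases came from WBcel235 (ce11) and Ensembl release 115. A summit took its class in this order: promoter (500 bp upstream of a start, without piRNA genes), UTR at the 5' end, exon with coding bases, UTR at the 3' end, exon of a noncoding gene, intron, downstream (500 bp), intergenic. X and autosomes were compared by an exact two-sided sign-flip permutation test over the 3 replicates' differences in Python 3.11.15 with numpy 2.4.6, scipy 1.17.1 and matplotlib 3.10.9, checked on simulated data. Words were searched within 100 bp of summits, and in consecutive windows of the same length over each chromosome.

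The members, lists, words and tests were chosen with earlier results of these data known. Genes named are those at the 25 highest X peaks, at the 3 largest runs, at the 2 highest peaks of each class and list, at peaks in the top 300 of every replicate, and, chosen after their values were seen, at peaks with the MEX core and at smaller runs. Alternatives were other list lengths, the IDR list, ce10 where no sequence was needed (its 3 parts set by ce11 lengths), other distances and windows, merged intervals and each replicate left out. 1 of the highest X peaks is not reported here.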

Additional observations from a re-analysis of the deposited data

How the results depend on the processing

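Of 95 alternative values for 9 results, 81 kept their direction or lay within the spread of the replicates, 7 turned and 7 moved. The shares of X summits in the outer parts, with a neighbour, with the GA repeat and with the MEX core kept their direction under every alternative run, the last from 1.24 (top 6000) to 9.49 percentage points (IDR list); its alternatives were added after seeing the data. The density difference turned to 48.5 per 1000 coding genes, since genes replace bases. The promoter difference (X minus autosomes, 2.63 points) turned to -2.48 points in the IDR list, to -7.42 with coding starts only and, over replicates, ranged from -0.658 without replicate 2 to 2.10 without another. The recurrence difference (-1.20 points) turned to 1.18 in the top 1000, 4.52 in the IDR list and 0.249 without replicate 1, with -2.28 the lowest on leaving out a replicate of the pooled comparison; over the replicates' own lists the values with 1 left out ran from -2.80 to -2.60. The median signal difference moved to -0.0776 (top 1000), -0.0252 (top 6000), 1.26 (IDR list) and -0.0223 (mean of replicates, -0.0384 to -0.00505 with 1 left out, -0.0233 without replicate 3), on lists of other scales. Except where lists changed scale or units, the cause was not tested. The samples form 1 group, so no pairing between groups exists; X and autosomes were compared within each replicate. Depth is unknown, and with 3 replicates the sign-flip test cannot pass 0.05.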
